A study of Mus musculus with 9 samples.

Results

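The genes described here are 42 lysosomal genes of the mouse: 16 for glycosidases and sulfatases, 5 for lipid hydrolases and their activators, 3 for peptidases and soluble regulators, 7 for lysosomal membrane proteins, 2 for transcription factors and 9 for parts of the proton pump. They were picked by name as a functional group, with the cathepsins left out, and no measured value is part of the rule. The choice was made with earlier results of these data known. All 42 were among the 50508 gene rows of the count table. Of the 14708 genes with enough reads for a test, 41 were members, and Atp6v0d2 was the member that was not tested.

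RNA was measured in TDC, a population sorted from mouse spleen and so named by the submitters, in conventional dendritic cells (DC) and in conventional T cells. Every mouse, including those that gave the control cells, was untreated, 8 weeks old and homozygous for Zbtb46-GFP, a reporter that places green fluorescent protein under the locus of Zbtb46, a transcription factor of conventional DC. No library came from mice without the reporter. Whether the allele changes the function of Zbtb46 or the levels given here was not tested. Each population had 3 libraries. A library of replicate 1 came from pooled spleens of 5 mice, and libraries of replicates 2 and 3 came from pools of 6 mice. No source used here gives the gates of the sort. The libraries were made with a kit that counts the 3′ ends of transcripts, so that a gene's count does not grow with its length.

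Lysosomes are acidic organelles in which macromolecules taken up from outside or from the cell's own cytoplasm are broken down. Soluble hydrolases each cut their own kind of bond, membrane proteins protect the organelle and move products out, and a proton-pumping ATPase built from a cytosolic V1 and a membrane V0 sector keeps the interior acidic. TFEB and TFE3 are transcription factors known to bind E-box letters in the promoters of many lysosomal genes. Macrophages are known for abundant lysosomes that degrade engulfed cells, and DC for a milder degradation that preserves peptides for antigen presentation.

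Reads assigned to genes numbered 14594850 to 22677130 per library in TDC, 14973484 to 25676640 in DC and 10986544 to 18071425 in T cells. Levels are given as CPM, the counts of a gene over the scaled read total of its library, in the order of replicates 1, 2 and 3. Totals were scaled with TMM factors (trimmed mean of M values). Differences are given as log2 fold changes (log2FC) ± SE. A gene was called higher or lower where the adjusted p of edgeR's quasi-likelihood test was below 0.05 over all 14708 genes. Summed levels of 11 macrophage markers, among them Adgre1, C1qa and Vcam1, were 49800 to 81300 CPM in TDC libraries, 188 to 310 CPM in DC and 2.81 to 5.33 CPM in T cells, where 4 of the 11 had no read. All 11 were called higher in TDC than in either control. Summed levels of 8 conventional DC markers were 2100 to 4860 CPM in TDC, 20600 to 39500 CPM in DC and 948 to 1520 CPM in T cells, and 6 of the 8 were called lower in TDC than in DC. Most of the sum was H2-Ab1, a gene of class II antigen presentation, in TDC (4645, 1870.0 and 3696 CPM) and in DC (24530, 36860 and 17480 CPM), which was not called between them (adjusted p = 0.128). In T cells most of it was Ccr7, a chemokine receptor gene of DC and T cells (1509, 1132 and 941 CPM). Sums of 8 T cell markers were 80.5 to 258 CPM in TDC, 22.4 to 27.6 CPM in DC and 6900 to 9600 CPM in T cells. Of these 8, 7 were called higher in TDC than in DC and 8 lower in TDC than T cells. Most of the sum in DC was Cd5 (19.63, 22.15 and 26.35 CPM), which was not called between TDC and DC (adjusted p = 0.102). Sums of 7 erythroid markers were 600 to 2080 CPM in TDC, 1.49 to 22.4 CPM in DC and 0.633 to 1.44 CPM in T cells. Sums of 3 platelet markers were 12.2 to 18.5 CPM in TDC, at most 3.48 CPM in DC and at most 1.69 CPM in T cells. Sums of 4 markers of stroma and endothelium, mostly Pecam1, were 144 to 396 CPM in TDC, at most 67.9 CPM in DC and at most 106 CPM in T cells. The macrophage, erythroid, platelet and stroma marker sums were thus highest in TDC, as was the share of reads from the lysosomal genes given below. In DC against T cells, 8 of the 11 macrophage and 1 of the 7 erythroid markers were called higher. The part of these markers in the lysosomal results was not tested. In bulk libraries, a different share of cells that make a transcript and a different amount of it per cell cannot be told apart. Libraries deviated from their group means by transcript length. For genes with transcripts shorter than 1000 bases, the median deviation on the log2 scale was 0.66 in TDC replicate 1, 0.84 in DC replicate 2, -0.63 in DC replicate 3 and -0.37 to 0.42 in the others. For transcripts longer than 4000 bases it was -0.43 in TDC replicate 1, -0.28 in DC replicate 2 and -0.05 to 0.29 in the others.

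Lysosomal transcripts made up a larger share of the RNA in TDC than in either control population. Together the 42 genes accounted for 1.80% to 2.45% of all reads in TDC, 1.07% to 1.61% in DC and 0.265% to 0.327% in T cells, and the populations did not overlap. As a mean, the share was 2.17% ± 0.333 in TDC, 1.42% ± 0.303 in DC and 0.303% ± 0.0335 in T cells (SD, n = 3 each). Against DC, 21 of the 41 tested members were called higher in TDC and 2 lower, with a median log2FC of 1.40. Over all genes tested, 9.55% were called higher and 4.60% lower in TDC than in DC, with a median of 0.01. Against T cells, 35 members were called higher in TDC than there and 0 lower, with a median log2FC of 2.38, against 21.8% called higher, 11.2% lower and a median of 0.14 over all genes tested. No member had a negative log2FC against T cells, so none was lower at an unadjusted p below 0.05 either, and DESeq2 and limma-voom also called 0 lower.

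The members called higher in TDC than in DC were the same 21 that were called higher in TDC than in both controls, against 7.06% of all genes tested. Among them were 8 of 16 glycosidases and sulfatases, 1 of 5 lipid hydrolases and activators, 3 of 3 peptidases and soluble regulators, 6 of 7 membrane proteins and 3 of 8 tested pump parts, but neither transcription factor. In 8 of the 21 (Hexa, Man2b1, Asah1, Lgmn, Grn, Lamp2, Atp6v1a and Atp6v1b2) the level in DC was in turn called higher than T cells. In the other 13, DC and T cells were not called apart. Gm2a and Ppt1 were called lower in TDC than in DC and higher than T cells, and 10 members were called higher in both TDC and DC than T cells without a call between TDC and DC. Scaling by library size alone moved the median log2FC of all genes by -0.29 against DC and by -0.61 against T cells. The calls of all genes in TDC against DC were then 53.1% higher, in place of 67.5% with TMM factors, and those against T cells 42.9% higher, in place of 66.0%. Relative to the median of all genes, that of the members was 1.37 above it with library size alone and 1.39 above it with TMM factors against DC, and 2.22 and 2.24 above it against T cells. Library size alone left 14 members higher in TDC than in DC and 29 higher than T cells. Over all genes it left 1135 and 2492 higher, in place of 1404 and 3204. Without TDC replicate 2 the count against DC was 12 members higher and 1 lower, with 897 of all genes higher. Without TDC replicate 1 and DC replicate 2, it was 20 members higher and 1 lower, with 1060 of all genes higher.

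**Figure D1:**
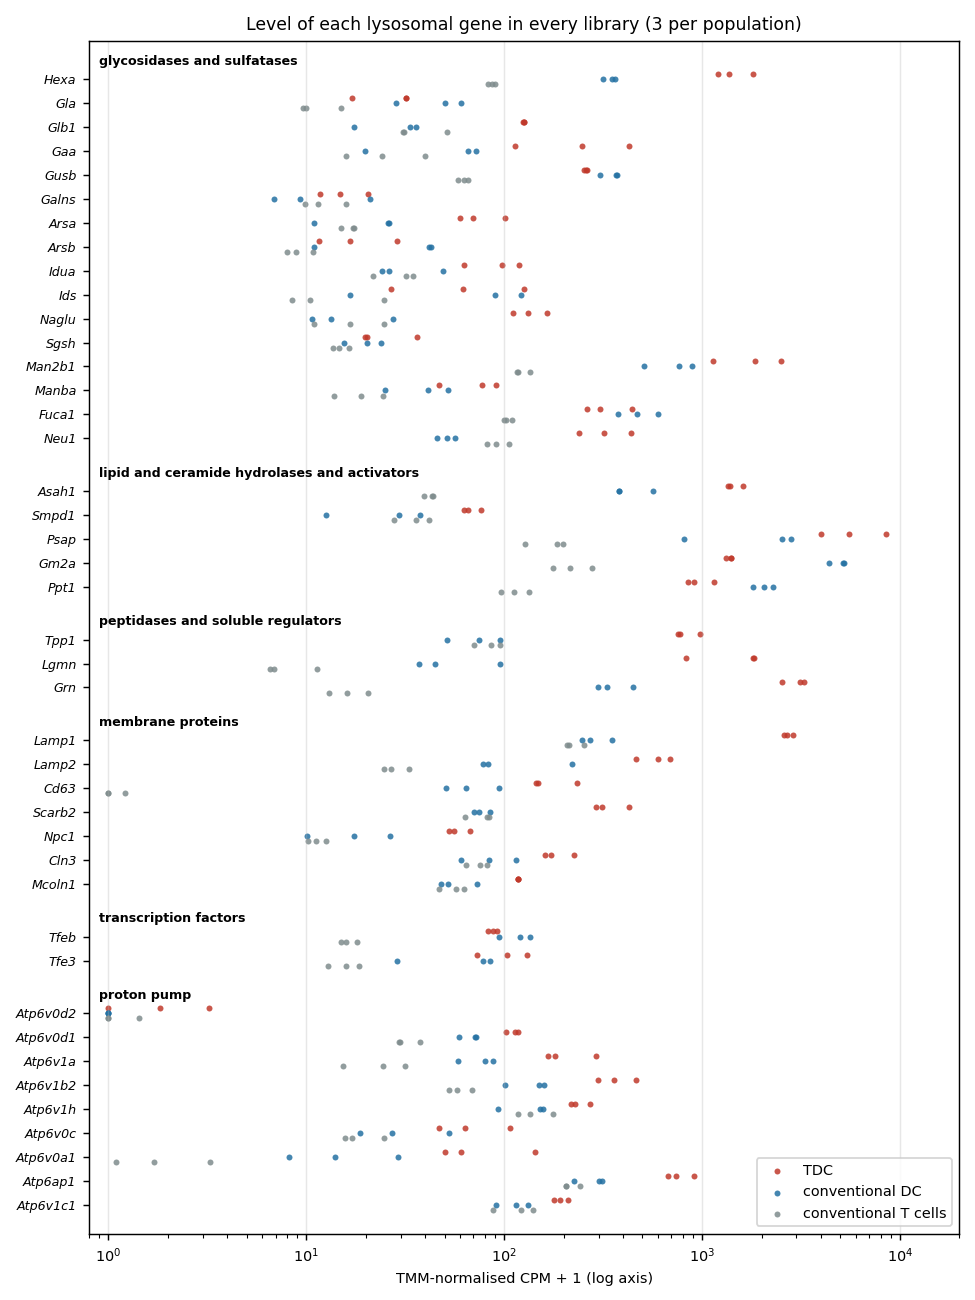
Level of each of the 42 lysosomal genes in every library, as TMM-normalised CPM plus 1 on a log axis, grouped by role; each point is 1 library and colours mark TDC, conventional DC and conventional T cells. Lamp1 sits at 2595 to 2870 CPM in the 3 TDC libraries and at 248 to 351 CPM in DC, whereas Gm2a lies lower in TDC (1322 to 1402 CPM) than in DC (4408 to 5245 CPM).

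Promoters of the members were searched for the E-box CACGTG and for its longer form TCACGTGA, the core of the element that TFEB and TFE3 are known to bind. Both strings read the same on either strand, and every match to the longer string contains a match to the shorter. RefSeq start sites of GRCm38.p6 gave 43 promoters for 35 of the 42 members, each covering 250 bases before and 50 bases after a start. The longer string was found in 5 of the 43 (11.6%, exact 95% interval 3.89% to 25.1%), against 0.974% of 32851 promoters of all genes and 1.84% of 12740 promoters of genes tested here. CACGTG was found in 12 of the 43 (27.9%, 15.3% to 43.7%), against 7.15% and 9.76%. These letters are already known from promoters of many lysosomal genes, so their higher share among the members is not an independent result. Among promoters of members called higher in TDC than in both controls, 9 of 20 held CACGTG (45.0%, 23.1% to 68.5%). Of promoters of the other members, 3 of 23 did (13.0%, 2.78% to 33.6%). The longer string was in 3 of those 20 (interval 3.21% to 37.9%) and in 2 of those 23 (1.07% to 28.0%). For both strings the intervals overlapped, and whether the letters go with the call was not tested. The 20 and 23 promoters came from 18 and 17 genes, and the intervals treat each promoter as separate. The share among all genes called higher in TDC than in both controls is not given here. Promoters of 1 gene can overlap, and the presence of the letters was not measured as binding. Shown here are the 3 promoters with the longer string among members higher in TDC than in both controls, with TCACGTGA in capitals, and that of Lamp1, which was chosen after its sites were seen because it held CACGTG 4 times, with CACGTG in capitals. All windows are of GRCm38.p6: chr16:44139210-44139509 on the minus strand for Atp6v1a, chr7:126583187-126583486 on the minus strand for Cln3, chr8:3500269-3500568 on the plus strand for Mcoln1 and chr8:13158911-13159210 on the plus strand for Lamp1. Each is written 5′ to 3′ on the strand of its gene.
Atp6v1a: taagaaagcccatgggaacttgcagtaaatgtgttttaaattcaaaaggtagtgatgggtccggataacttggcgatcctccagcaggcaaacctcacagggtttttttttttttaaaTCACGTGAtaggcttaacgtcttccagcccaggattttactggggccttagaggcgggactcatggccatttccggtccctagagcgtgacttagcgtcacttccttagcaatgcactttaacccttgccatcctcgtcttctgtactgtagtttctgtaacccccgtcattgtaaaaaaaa
Cln3: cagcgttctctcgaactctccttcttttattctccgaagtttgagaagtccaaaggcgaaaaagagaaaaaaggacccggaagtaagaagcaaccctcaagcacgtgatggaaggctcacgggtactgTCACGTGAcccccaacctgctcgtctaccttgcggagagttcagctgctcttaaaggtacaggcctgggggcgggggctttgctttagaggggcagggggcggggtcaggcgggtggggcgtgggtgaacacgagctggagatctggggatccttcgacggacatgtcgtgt
Mcoln1: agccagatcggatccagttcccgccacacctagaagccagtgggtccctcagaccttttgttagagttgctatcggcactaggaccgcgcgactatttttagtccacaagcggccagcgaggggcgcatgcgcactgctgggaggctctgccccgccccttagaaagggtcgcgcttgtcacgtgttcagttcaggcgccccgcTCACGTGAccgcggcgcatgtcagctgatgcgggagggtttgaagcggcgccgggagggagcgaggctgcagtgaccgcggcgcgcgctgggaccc
Lamp1: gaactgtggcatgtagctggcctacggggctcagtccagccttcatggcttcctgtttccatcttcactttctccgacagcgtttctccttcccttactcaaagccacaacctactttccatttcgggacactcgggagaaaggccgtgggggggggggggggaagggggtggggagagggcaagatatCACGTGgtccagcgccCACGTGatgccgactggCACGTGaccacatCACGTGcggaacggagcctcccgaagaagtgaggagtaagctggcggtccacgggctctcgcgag
Counted from the start site, the first base of the longer string lay at -132 in Atp6v1a, at -122 in Cln3 and at -46 in Mcoln1. Atp6v0d1 (-4) and Gla (-228 and -195), which held it too, were not called between TDC and DC. In Lamp1 the 4 E-boxes began at -61, -45, -28 and -15.

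Among the glycosidases and sulfatases, which take sugars and sulfate groups off glycoproteins, glycolipids and glycosaminoglycans, 8 of 16 were called higher in TDC than in DC, 0 lower and 8 were not called. Over all genes tested, 9.55% were called higher there and 4.60% lower. Hexa encodes the alpha subunit of beta-hexosaminidase, which degrades gangliosides. It had 1818, 1371 and 1205 CPM in TDC, 360.4, 351 and 316 CPM in DC, with 88.7, 85.8 and 81.6 CPM in T cells. The 3 populations did not overlap, and Hexa was higher in TDC than in DC (log2FC 2.10 ± 0.28, adjusted p = 0.00106) and than T cells (4.10 ± 0.30, adjusted p = 7.95e-06). Naglu, which encodes an enzyme of heparan sulfate breakdown, had 109.7, 164 and 131 CPM in TDC, 26.4, 9.68 and 12.3 CPM in DC, with 23.8, 9.98 and 15.6 CPM in T cells. DC and T cells overlapped in Naglu, and TDC lay above both. The Naglu log2FC was 3.06 ± 0.48 against DC (adjusted p = 0.00254) and 3.04 ± 0.48 against T cells (adjusted p = 0.000964). For the sialidase gene Neu1 the libraries held 435, 319.9 and 239 CPM in TDC, 55.5, 50.6 and 44.8 CPM in DC, with 105, 80.9 and 90.2 CPM in T cells. Every TDC library was above every DC and T cell library. The Neu1 log2FC was 2.72 ± 0.31 against DC (adjusted p = 0.000533) and 1.85 ± 0.30 against T cells (adjusted p = 0.00113). Neu1 was the member with the most negative log2FC in DC against T cells (-0.87 ± 0.30, adjusted p = 0.0573).

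Glb1, the gene for acid beta-galactosidase, had 125, 123 and 126 CPM in TDC, 32.6, 16.5 and 35.0 CPM in DC, with 50.4, 30.2 and 29.7 CPM in T cells. Its 3 TDC libraries differed from each other by less than those of either control and lay above all of them. The Glb1 log2FC was 2.15 ± 0.37 against DC (adjusted p = 0.00411) and 1.76 ± 0.37 against T cells (adjusted p = 0.00457, which was 0.0523 with library size alone). Man2b1, the gene for acid alpha-mannosidase, had 1132, 2497 and 1849 CPM in TDC, 886, 506 and 762 CPM in DC, with 135, 116 and 116 CPM in T cells. No population overlapped another in Man2b1. The Man2b1 log2FC was 1.35 ± 0.35 against DC (adjusted p = 0.0287) and 3.90 ± 0.39 against T cells (adjusted p = 5.22e-05). Gaa, which encodes the acid alpha-glucosidase that degrades glycogen, had 113, 425 and 246 CPM in TDC, 71.3, 18.8 and 64.5 CPM in DC, with 23.2, 14.9 and 39.0 CPM in T cells. Its TDC libraries spread widely but stayed above both controls. The Gaa log2FC was 2.34 ± 0.62 against DC (adjusted p = 0.0298) and 3.34 ± 0.65 against T cells (adjusted p = 0.00299). Against DC, the calls of Man2b1 and Gaa ended without TDC replicate 2 or 3 or any DC library (adjusted p = 0.0508 to 0.143 and 0.0540 to 0.143). They also ended with library size alone (adjusted p = 0.1 and 0.0746), in a fit of TDC and DC alone (0.0718 and 0.0542) and with the replicate number as a block (0.0720 and 0.0612).

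The 2 further genes of this group called higher in TDC than in both controls were Arsa, for the arylsulfatase that acts on sulfatide, and Idua, for the iduronidase of dermatan and heparan sulfate. Arsa averaged 75.8 ± 21.5 CPM in TDC, 20.0 ± 8.69 CPM in DC, with 15.5 ± 1.36 CPM in T cells (SD, n = 3 each), with a log2FC against DC of 1.92 ± 0.42 (edgeR adjusted p = 0.0119, which was 0.0744 without TDC replicate 2). Idua averaged 92.1 ± 28.4 CPM in TDC, 32.1 ± 13.7 CPM in DC, with 28.5 ± 6.75 CPM in T cells, with a log2FC against DC of 1.52 ± 0.40 (edgeR adjusted p = 0.0296). Idua lost its call against DC without replicate 2 or 3 of TDC or of DC (adjusted p = 0.0867 to 0.137) and in 4 further settings, and against T cells with library size alone (0.0756). Not called against DC but higher in both TDC and DC than T cells were Gusb, Gla, Fuca1 and Ids, which encode a glucuronidase, alpha-galactosidase A, a fucosidase and the sulfatase of iduronate. Gusb had 260.0, 252 and 257 CPM in TDC, 369.6, 303 and 366 CPM in DC, with 62.0, 64.5 and 57.7 CPM in T cells. All TDC libraries lay below all DC libraries in Gusb, by a log2FC that was not called (-0.43 ± 0.25, adjusted p = 0.285). The log2FC values of Gla and Fuca1 against DC were -0.81 ± 0.43 (adjusted p = 0.247) and -0.52 ± 0.30 (adjusted p = 0.299). Ids ranged over 25.9 to 124 CPM in TDC, 15.7 to 121 CPM in DC and 7.51 to 23.7 CPM in T cells.

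The calls of Gla and Ids against T cells ended in 11 and 10 of 20 alternative settings, with adjusted p of at most 0.260 and 0.179. For Gla these included leaving out TDC replicate 1 or 2, T cell replicate 1 or 2 or DC replicate 2 (0.0514 to 0.137). For Ids they included leaving out DC replicate 1, T cell replicate 1 or 2 or TDC replicate 2 or 3 (0.0574 to 0.179). Manba, the beta-mannosidase gene, was higher in TDC than T cells (log2FC 1.97 ± 0.42, adjusted p = 0.00502) and was not called against DC (0.88 ± 0.41, adjusted p = 0.190). Arsb, the gene of another sulfatase, was called in DC against T cells alone, at 30.9 ± 18.2 CPM in DC, with 8.21 ± 1.42 CPM in T cells (SD, n = 3 each, log2FC 1.91 ± 0.59, edgeR adjusted p = 0.0379). That call ended in 9 of 20 settings, among them leaving out DC replicate 1 or 3, any T cell library or TDC replicate 2 (0.0548 to 0.124). Galns and Sgsh, for sulfatases of keratan and heparan sulfate, were below 36 CPM in every library and were called in no comparison.

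Lipid hydrolases and their activators divided between the populations. Asah1, the acid ceramidase gene, was called higher in TDC than in DC, Gm2a and Ppt1 were called lower, and Psap and Smpd1 were not called. Asah1 had 1611, 1390.0 and 1359 CPM in TDC, 563, 380.5 and 382 CPM in DC, with 38.4, 42.1 and 42.8 CPM in T cells. The populations were separate in Asah1. The Asah1 log2FC was 1.72 ± 0.28 against DC (adjusted p = 0.00277) and 5.14 ± 0.32 against T cells (adjusted p = 4.19e-06). Gm2a encodes the activator protein that lifts gangliosides out of membranes for beta-hexosaminidase and also loads lipids onto CD1 molecules. It had 1394, 1322 and 1402 CPM in TDC, 5190.0, 5245 and 4408 CPM in DC, with 175, 277 and 213 CPM in T cells. Gm2a was lower in TDC than in DC (log2FC -1.85 ± 0.29, adjusted p = 0.00234). Against T cells it was higher (2.63 ± 0.30, adjusted p = 0.000105). Hexa, whose product works with that of Gm2a, was higher in TDC than in both. Of the reads of the 42 members, Gm2a took 30.6% to 42.9% in DC libraries.

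Ppt1, which encodes a thioesterase that takes palmitate off proteins, had 907, 848 and 1144 CPM in TDC, 2056, 1810.0 and 2277 CPM in DC, with 111, 94.9 and 132 CPM in T cells. All TDC libraries were below all DC libraries and above all T cell libraries. The Ppt1 log2FC was -1.08 ± 0.28 against DC (adjusted p = 0.0261) and 3.10 ± 0.30 against T cells (adjusted p = 3.89e-05). Ppt1 lost its call against DC without TDC replicate 1 or 2 or DC replicate 1 or 3 (0.0683 to 0.0955) and without the filter on low counts (0.0549). Psap, the precursor of 4 saposins that activate sphingolipid hydrolases, had 4005, 8561 and 5559 CPM in TDC, 2547, 811 and 2826 CPM in DC, with 197, 127 and 185 CPM in T cells. The TDC libraries lay above the DC libraries, by a log2FC that was not called (1.55 ± 0.48, adjusted p = 0.0584), and above T cells (5.16 ± 0.56, adjusted p = 9.28e-05). Psap was called against DC by DESeq2 (adjusted p = 0.0164), by limma-voom (0.0182), without the filter on low counts (0.0146) and without TDC replicate 1 and DC replicate 2 (0.0428). Smpd1, the acid sphingomyelinase gene, was nearest to the threshold among members not called in TDC against DC, with 64.9, 75.7 and 62.1 CPM in TDC, 28.5, 11.6 and 36.5 CPM in DC, with 26.7, 35.0 and 41.0 CPM in T cells (log2FC against DC 1.40 ± 0.42, adjusted p = 0.0502). It was called in 6 of 20 alternative settings, among them leaving out DC replicate 3 (adjusted p = 0.0356), and against T cells it was called without DC replicate 2 (0.0311) in place of an adjusted p of 0.0960.

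**Figure D2:**
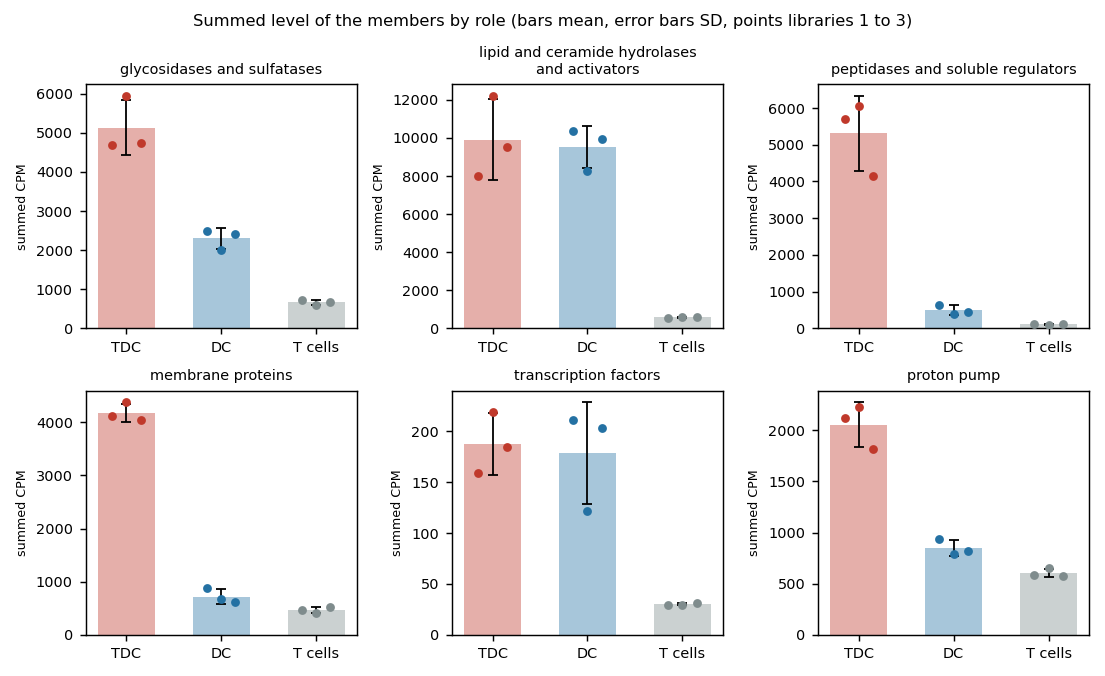
Summed CPM of the members of each role in TDC, conventional DC and conventional T cells; bars are means, error bars are SDs and points are the 3 libraries. Peptidases and soluble regulators summed to 5309 CPM in TDC and 490.0 CPM in DC, whereas lipid hydrolases and activators summed to 9901 CPM in TDC and 9524 CPM in DC.

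The lipid group summed to 9901 ± 2132 CPM in TDC, 9524 ± 1119 CPM in DC, with 579 ± 33.1 CPM in T cells (SD, n = 3 each). Different genes made up these sums, as Psap averaged 6042 CPM in TDC and 2061 CPM in DC, while Gm2a averaged 1373 CPM in TDC and 4948 CPM in DC. The widest gap between TDC and DC was in the 3 peptidases and soluble regulators, which summed to 5309 ± 1017 CPM in TDC, 490.0 ± 132 CPM in DC, with 106 ± 13.4 CPM in T cells. Lgmn encodes legumain, a protease that cuts after asparagine and matures cathepsins. It had 1815, 1821 and 828 CPM in TDC, 94.8, 36.0 and 43.7 CPM in DC, with 10.3, 5.53 and 5.87 CPM in T cells. The 3 populations did not overlap. The Lgmn log2FC was 4.68 ± 0.53 against DC (adjusted p = 0.000533) and 7.68 ± 0.62 against T cells (adjusted p = 1.39e-05). Grn encodes progranulin, a secreted and lysosomal protein that supports hydrolase activity. It had 3136, 3274 and 2548 CPM in TDC, 449, 297 and 331 CPM in DC, with 12.0, 15.1 and 19.5 CPM in T cells, again without overlap. The Grn log2FC was 3.06 ± 0.33 against DC (adjusted p = 0.000364) and 7.59 ± 0.40 against T cells (adjusted p = 1.93e-06). Tpp1, the gene of tripeptidyl peptidase, had 756, 972 and 776 CPM in TDC, 94.0, 50.4 and 74.0 CPM in DC, with 94.0, 69.8 and 84.4 CPM in T cells. DC and T cells shared their range in Tpp1, and TDC lay above it. The Tpp1 log2FC was 3.52 ± 0.33 against DC (adjusted p = 0.000212) and 3.33 ± 0.33 against T cells (adjusted p = 4.58e-05). These 3 calls against DC and against T cells held in all 20 alternative settings.

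Of the membrane proteins, 6 of 7 were called higher in TDC than in DC, against 9.55% of all genes tested. Higher in TDC than T cells were 7 of 7, against 21.8% of all genes tested. Lamp1 and Lamp2 encode the heavily glycosylated proteins that line the lysosomal membrane, and Lamp2 also gives the receptor of chaperone-mediated autophagy. Lamp1 had 2693, 2870.0 and 2595 CPM in TDC, 351, 248 and 271 CPM in DC, with 212, 208 and 254 CPM in T cells. DC and T cells overlapped in Lamp1 and were not called apart (log2FC 0.37 ± 0.27, adjusted p = 0.369). TDC were higher than DC (3.23 ± 0.29, adjusted p = 0.000194) and than T cells (3.60 ± 0.30, adjusted p = 1.45e-05). Lamp2 had 466, 690.5 and 597 CPM in TDC, 219, 77.4 and 81.6 CPM in DC, with 23.7, 25.9 and 31.9 CPM in T cells. The populations were separate in Lamp2, DC in turn being above T cells. The Lamp2 log2FC was 2.21 ± 0.43 in TDC against DC (adjusted p = 0.00709) and 4.43 ± 0.47 in TDC against T cells (adjusted p = 8.30e-05). In DC against T cells it was 2.21 ± 0.43 (adjusted p = 0.00391). Cd63, the gene of a tetraspanin of late endosomes and lysosomes, had 144, 147 and 232 CPM in TDC, 50.0, 93.8 and 63.3 CPM in DC, and in T cells 0.211 CPM in replicate 1 and no read in replicates 2 and 3. Per read of the library, Cd63 was 2050 times as frequent in TDC as in T cells (exact 95% counting interval 701 to 9950, from 7354 and 3 reads). For DC and T cells the ratio was 954 (326 to 4630). Between TDC and DC its log2FC of 1.34 ± 0.50 was not called (adjusted p = 0.110). DESeq2 (0.0149) and limma-voom (0.0157) called it.

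Scarb2, which encodes the membrane protein that carries glucocerebrosidase to lysosomes, averaged 342 ± 72.6 CPM in TDC, 75.6 ± 7.17 CPM in DC, with 75.7 ± 11.4 CPM in T cells (SD, n = 3 each, log2FC 2.18 ± 0.29 against DC, edgeR adjusted p = 0.00107). Npc1, the gene of the cholesterol exporter, averaged 57.6 ± 7.66 CPM in TDC, 17.1 ± 8.20 CPM in DC, with 10.3 ± 1.19 CPM in T cells (SD, n = 3 each, log2FC 1.76 ± 0.41 against DC, edgeR adjusted p = 0.0170, and 0.0604 or 0.0663 without DC replicate 1 or TDC replicate 2). Cln3, whose loss causes a childhood lipofuscinosis in humans and whose promoter is shown above, had the adjusted p nearest to the threshold among members called in TDC against DC. It had 225, 171 and 160.1 CPM in TDC, 82.7, 113 and 59.6 CPM in DC, with 74.5, 63.4 and 80.6 CPM in T cells. The Cln3 log2FC was 1.12 ± 0.31 against DC (adjusted p = 0.0376) and 1.35 ± 0.32 against T cells (adjusted p = 0.00815). Mcoln1, the gene of the calcium channel that signals to TFEB, averaged 117 ± 0.275 CPM in TDC, 56.6 ± 13.6 CPM in DC, with 54.5 ± 7.99 CPM in T cells (SD, n = 3 each, log2FC 1.04 ± 0.29 against DC, edgeR adjusted p = 0.0352). The 3 TDC libraries lay above every control library in all 4 of these genes. The share of all genes in which they did so is not given here. The calls of Cln3 and Mcoln1 against DC ended in 13 and 14 of 20 settings, with adjusted p of at most 0.106 and 0.158. Leaving out any library but DC replicate 2 ended that of Cln3, and any but DC replicate 1 that of Mcoln1. Against T cells, that of Mcoln1 ended without T cell replicate 2 (0.0652) and with library size alone (0.255), and that of Cln3 with library size alone (0.0657).

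Neither transcription factor differed by a call between TDC and DC, and both were higher in these populations than T cells. Tfeb had 86.7, 90.6 and 82.3 CPM in TDC, 135, 93.5 and 119 CPM in DC, with 14.8, 17.1 and 13.9 CPM in T cells. The TDC libraries lay just below the DC libraries (log2FC -0.42 ± 0.27, adjusted p = 0.356) and above the T cell libraries (2.50 ± 0.29, adjusted p = 0.000118). Tfe3 had 72.3, 129 and 102 CPM in TDC, 76.9, 27.9 and 83.7 CPM in DC, with 14.8, 11.8 and 17.5 CPM in T cells. In Tfe3, TDC overlapped DC (log2FC 0.69 ± 0.43, adjusted p = 0.334), and TDC were above T cells (2.78 ± 0.46, adjusted p = 0.00116). Of these 2 genes, 0 had an unadjusted p below 0.05 in TDC against DC, and DESeq2 and limma-voom called 0.

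For the proton pump, 3 of 8 tested members were called higher in TDC than in DC, 0 lower, and 6 of 8 higher in TDC than T cells. Over all genes tested, 9.55% were called higher in TDC than in DC, with a median log2FC of 0.01. Log2FC values of the pump members against DC ran from 0.72 to 2.37, so that all 8 were positive. All 8 had an unadjusted p below 0.05, but 5 were not called after adjustment. The share of all genes below that unadjusted p is not given here. The 3 called were 2 subunits of the catalytic V1 head, Atp6v1a and Atp6v1b2, and the accessory subunit gene Atp6ap1. Atp6v1a had 165, 289 and 180.4 CPM in TDC, 78.9, 57.5 and 86.9 CPM in DC, with 30.6, 23.6 and 14.4 CPM in T cells. Atp6v1b2 had 297, 464 and 358 CPM in TDC, 158, 100.5 and 148 CPM in DC, with 67.5, 51.5 and 56.9 CPM in T cells. In both, each population was separate from the others. The Atp6v1a log2FC was 1.51 ± 0.37 against DC (adjusted p = 0.0214) and 3.21 ± 0.39 against T cells (adjusted p = 0.000185). The Atp6v1b2 log2FC was 1.46 ± 0.30 against DC (adjusted p = 0.00973) and 2.67 ± 0.32 against T cells (adjusted p = 0.000143). Atp6ap1 had 909, 741 and 673 CPM in TDC, 311, 224 and 302 CPM in DC, with 239.5, 204 and 204 CPM in T cells. TDC were above both controls in Atp6ap1, which overlapped each other. The Atp6ap1 log2FC was 1.47 ± 0.28 against DC (adjusted p = 0.00568) and 1.84 ± 0.28 against T cells (adjusted p = 0.000650). Against DC, the call of Atp6v1a ended without TDC replicate 2 or 3 or DC replicate 1 or 2 (0.0511 to 0.116), with library size alone (0.0743) and with the replicate block (0.0552). That of Atp6v1b2 ended without TDC replicate 2 (0.0586) and with library size alone (0.0504).

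Atp6v0a1 encodes an a subunit and had 49.5, 142 and 59.3 CPM in TDC, 28.2, 13.0 and 7.21 CPM in DC, with 0.703, 0.0988 and 2.27 CPM in T cells. Its populations did not overlap, and it was called against T cells (log2FC 6.34 ± 1.01, adjusted p = 0.000997) but not against DC (2.37 ± 0.83, adjusted p = 0.0878). Against DC it was called without T cell replicate 2 (adjusted p = 0.0453), in a fit of TDC and DC alone (0.0477), by DESeq2 (0.0219) and by limma-voom (0.0173). Atp6v0c, for the proteolipid that forms the rotor ring, had 106, 62.5 and 46.0 CPM in TDC, 25.99, 51.6 and 17.6 CPM in DC, with 14.6, 23.7 and 16.0 CPM in T cells. In Atp6v0c, TDC overlapped DC (log2FC 1.18 ± 0.47, adjusted p = 0.132, and 0.0435 without DC replicate 2). TDC were above T cells (1.98 ± 0.48, adjusted p = 0.0104). Atp6v1h and Atp6v1c1, for subunits of the V1 sector that regulate its assembly, were called in no comparison, with log2FC values against DC of 0.83 ± 0.31 (adjusted p = 0.101) and 0.79 ± 0.29 (adjusted p = 0.0962). DESeq2 called both against DC (adjusted p = 0.0360 and 0.0298). It also called Atp6v1c1 against T cells (0.0341), as did limma-voom (0.0481), in place of an adjusted p of 0.0715.

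Atp6v0d1 and Atp6v0d2 are alternative d subunits that link both sectors. Atp6v0d1 is found in most cells, and Atp6v0d2 is known from osteoclasts, macrophages and kidney. Atp6v0d1 had 113, 116 and 101 CPM in TDC, 70.5, 58.3 and 70.9 CPM in DC, with 28.9, 36.7 and 28.4 CPM in T cells. The 3 populations did not overlap, but TDC against DC was not called (log2FC 0.72 ± 0.27, adjusted p = 0.106, and 0.0290 with DESeq2). TDC were above T cells (1.81 ± 0.28, adjusted p = 0.000722). Atp6v0d2 had 2.24, 0 and 0.820 CPM in TDC, no read in any DC library, and 0.422, 0 and 0 CPM in T cells. As a share of the reads of both d subunits, it took 1.95% (25 of 1285 reads, exact 95% interval 1.26% to 2.86%), 0% (of 2080 reads, where a limit of 3 reads allows up to 0.144%) and 0.806% (11 of 1365 reads, 0.403% to 1.44%) in the TDC libraries. In DC it took 0 of 1841, 837 and 1189 reads, for which the limit of 3 reads allows up to 0.163%, 0.358% and 0.252%. In T cells it took 1.44% in replicate 1 (6 of 417 reads, 0.530% to 3.11%) and no read in the others. The mean share was 0.917% ± 0.978 in TDC, 0% in DC and 0.480% ± 0.831 in T cells (SD, n = 3 each). An exact two-sided permutation test gave p = 0.4 for TDC against DC and p = 0.7 for TDC against T cells. Without ties, the smallest p that 3 against 3 libraries allow is 0.1. With so many shares tied at 0, the test against DC could not give a p below 0.4. It therefore cannot decide whether TDC and DC differ in this share.

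**Figure D3:**
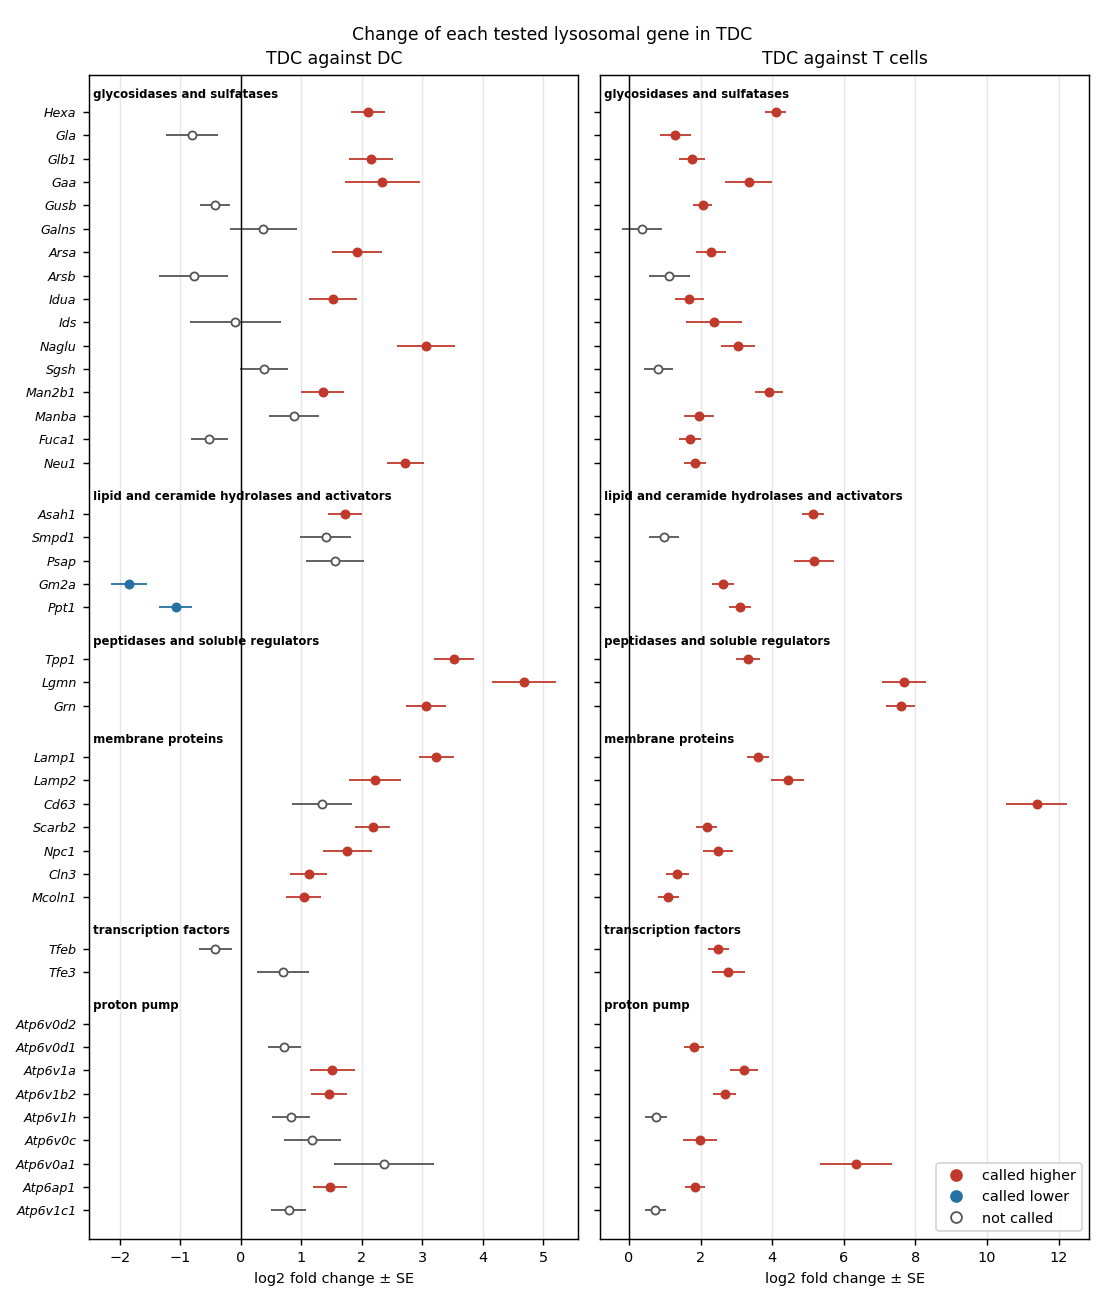
Log2FC ± SE of each of the 41 tested members in TDC against DC (left) and TDC against T cells (right), with called genes as filled points and genes not called as open points. Gm2a and Ppt1 lie left of 0 against DC at -1.85 and -1.08, every member lies right of 0 against T cells, and the value of Cd63 against T cells rests on 3 T cell reads.

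DC were compared with T cells to see how the controls differed in these genes. Higher in DC were 21 of 41 members and 0 were lower, with a median log2FC of 1.09, against 15.4% of all genes higher, 8.41% lower and a median of 0.08. At an unadjusted p below 0.05, 1 member was lower, and DESeq2 called 1 and limma-voom 0. With library size alone, 50.2% of the calls over all genes were higher, in place of 64.7%. Gm2a (4.48 ± 0.32, adjusted p = 1.17e-05), Grn (4.53 ± 0.35, adjusted p = 1.39e-05) and Ppt1 (4.18 ± 0.31, adjusted p = 1.34e-05) had the highest fitted log2FC values apart from Cd63. Called in DC against T cells were 7 of 16 glycosidases and sulfatases, 4 of 5 lipid hydrolases and activators, 2 of 3 peptidases and soluble regulators, 2 of 7 membrane proteins, both transcription factors and 4 of 8 pump parts. Neu1 was the member lower in DC under DESeq2 (adjusted p = 0.0196) and in 5 other settings, among them leaving out TDC replicate 1 (0.0420). The calls of Atp6v0d1 and Atp6v1b2 (log2FC values 1.09 and 1.21, adjusted p = 0.0147 and 0.0144) ended without DC replicate 1 or T cell replicate 3, that of Atp6v0d1 also without T cell replicate 1 and that of Atp6v1b2 without T cell replicate 2 (adjusted p = 0.0507 to 0.0670 and 0.0582 to 0.0649). That of Ids (2.47, adjusted p = 0.0461) ended without DC replicate 1 or 3, T cell replicate 1 or 2 or TDC replicate 3 (at most 0.148), and Manba was called without DC replicate 2 (0.0333).

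Libraries of a population differed from each other in the members too. The median coefficient of variation over the 41 tested members was 21.7% in TDC, 30.0% in DC and 17.3% in T cells, against 41.0%, 47.9% and 32.3% over all tested genes with a level above 0. All genes were not matched to the members by level, so these medians do not show whether members varied less than other genes of their level. Within TDC, replicate 2 had the highest level of 23 of the 41, and within DC, replicate 2 had the lowest level of 29 of the 41. Ids, Atp6v0a1 and Gaa had the highest coefficients of variation of the tested members in TDC, each with its highest level in replicate 2. The 3′ ends of 6 members (Galns, Grn, Lamp1, Npc1, Ppt1 and Sgsh) lie within a gene of the opposite strand in the GENCODE annotation of GRCm38. No source used here gives the strand setting of the counting, and reads of the pairs cannot be told apart with certainty. The partner of Ppt1, Cap1, had 28.7 to 60.0 CPM, and those of Galns, Grn, Lamp1 and Sgsh had at most 5.30 CPM. Rmc1, the partner of Npc1, had no row under that symbol in the count table, so its level is not known.

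A further 99 lysosomal genes outside the members were listed to set them in their pathway, and 92 had enough reads for a test. In TDC against DC, 28 of them were higher (30.4%) and 2 lower, against 9.55% and 4.60% of all genes tested. The median log2FC was 0.95, against 0.01. In TDC against T cells, 59 were higher (64.1%) and 1 lower, against 21.8% and 11.2% (median 1.98, against 0.14). In DC against T cells, 29 were higher (31.5%) and 6 lower, against 15.4% and 8.41% (median 0.81, against 0.08). Without DC replicate 1 the lower genes numbered 2, without any single T cell library 3, and without both TDC replicate 1 and DC replicate 2 they numbered 10. The count of genes higher in TDC than in DC was 18 without TDC replicate 2. Among other hydrolases, 13 of 31 were higher in TDC than in DC (41.9%, against 9.55% of all genes tested) and 1 was lower. Pld3, for an exonuclease of lysosomal nucleic acids, had 3359, 2938 and 2097 CPM in TDC, 11.8, 9.68 and 14.4 CPM in DC, with 296, 277 and 268 CPM in T cells. Pld3 was lower in DC than T cells (log2FC -4.55 ± 0.34, adjusted p = 1.29e-05). It was higher in TDC than in both (7.87 ± 0.39 against DC, adjusted p = 1.28e-05, and 3.32 ± 0.32 against T cells, adjusted p = 3.67e-05). Lipa, the acid lipase gene, was higher in TDC than in DC (3.06 ± 0.49, adjusted p = 0.00261). So were Smpdl3a, for a sphingomyelinase-like enzyme (2.65 ± 0.36, adjusted p = 0.00118), and Npc2, for the soluble partner of the Npc1 product (1.81 ± 0.36, adjusted p = 0.00732). Npc2 was not called against T cells (0.65 ± 0.35, adjusted p = 0.179). Naaa, for an amidase of N-acylethanolamines, fell with Gm2a and Ppt1, to 129 ± 51.1 CPM in TDC against 609.7 ± 72.8 CPM in DC (SD, n = 3 each, log2FC -2.24 ± 0.41, edgeR adjusted p = 0.00512).

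Of the other membrane proteins and transporters, 8 of 24 were higher in TDC than in DC (33.3%, against 9.55% of all genes tested) and 0 lower. The smallest adjusted p were those of Hgsnat, for an acetyltransferase of heparan sulfate breakdown (3.01 ± 0.35, adjusted p = 0.000533), and Laptm4a (2.83 ± 0.34, adjusted p = 0.000660). Of the other pump subunits, 2 of 10 were higher (20.0%), Atp6ap2 (1.13 ± 0.28, adjusted p = 0.0220) and Atp6v1e1 (1.26 ± 0.36, adjusted p = 0.0427). Tcirg1, for another a subunit, was not called (0.62 ± 0.35, adjusted p = 0.278). Both pump calls ended without DC replicate 3, TDC replicate 1 or TDC replicate 2 (adjusted p = 0.0564 to 0.110), that of Atp6ap2 also without DC replicate 2 (0.0561) and that of Atp6v1e1 without DC replicate 1, TDC replicate 3 or any T cell library (0.0536 to 0.121). Of the regulators, 3 of 17 were higher (17.6%) and 1 lower (Rraga, -1.29 ± 0.33, adjusted p = 0.0258). Tfec, a relative of Tfeb known from macrophages, had 130.1, 54.9 and 79.0 CPM in TDC, 2.45, 0 and 0 CPM in DC, with no read in T cells. Per read of the library, against 3 reads over the T cell libraries, it was at least 974-fold higher in TDC. Its log2FC against DC was 6.63 ± 1.44 (adjusted p = 0.0182, and 0.0507 without TDC replicate 1, 0.162 without the filter on low counts and 0.0702 with DESeq2). Mitf, the other relative, had 34.3, 35.9 and 40.3 CPM in TDC, 3.29, 1.81 and 0 CPM in DC, with 2.04, 1.14 and 0 CPM in T cells. Every TDC library lay above every control library in Mitf, which was called against T cells (log2FC 5.13 ± 1.44, adjusted p = 0.0197) and not against DC (4.41 ± 1.38, adjusted p = 0.0595). Against DC, Mitf was called in 6 settings, by DESeq2 (0.00337), by limma-voom (0.0108), in a fit of TDC and DC alone (0.0401), with the replicate block (0.0424), without T cell replicate 3 (0.0283) and with a filter of 10 CPM in 3 libraries (0.0497). Leaving out T cell replicate 2 or TDC replicate 3 ended its call against T cells (0.0648 and 0.0527), as did testing without the filter on low counts (0.0677). Flcn, for a regulator of TFEB phosphorylation, was higher in TDC than in DC (1.82 ± 0.34, adjusted p = 0.00573).

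Among 10 genes that deliver hydrolases to lysosomes, 2 were higher in TDC than in DC (20.0%, against 9.55% of all genes tested) and 0 lower. Igf2r, for the large mannose-phosphate receptor, had 14.2, 53.7 and 13.1 CPM in TDC, 0.765, 1.32 and 7.69 CPM in DC, with 37.0, 31.7 and 23.5 CPM in T cells. In Igf2r, TDC lay above DC (log2FC 3.06 ± 0.89, adjusted p = 0.0451) and overlapped T cells (-0.18 ± 0.81, adjusted p = 0.885). DC lay below T cells (-3.24 ± 0.90, adjusted p = 0.0233), a call that ended without DC replicate 1 or 2 or T cell replicate 1 or 2 (0.0533 to 0.0688). Sort1, for sortilin, had 78.1, 384 and 101 CPM in TDC, 25.3, 22.0 and 56.3 CPM in DC, with no read in T cells (log2FC 2.44 ± 0.68 against DC, adjusted p = 0.0482). The calls of Igf2r and Sort1 against DC ended without any single library but DC replicate 3 and, for Sort1, TDC replicate 1 (adjusted p = 0.0572 to 0.218 for Igf2r and 0.0502 to 0.207 for Sort1).

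**Figure D4:**
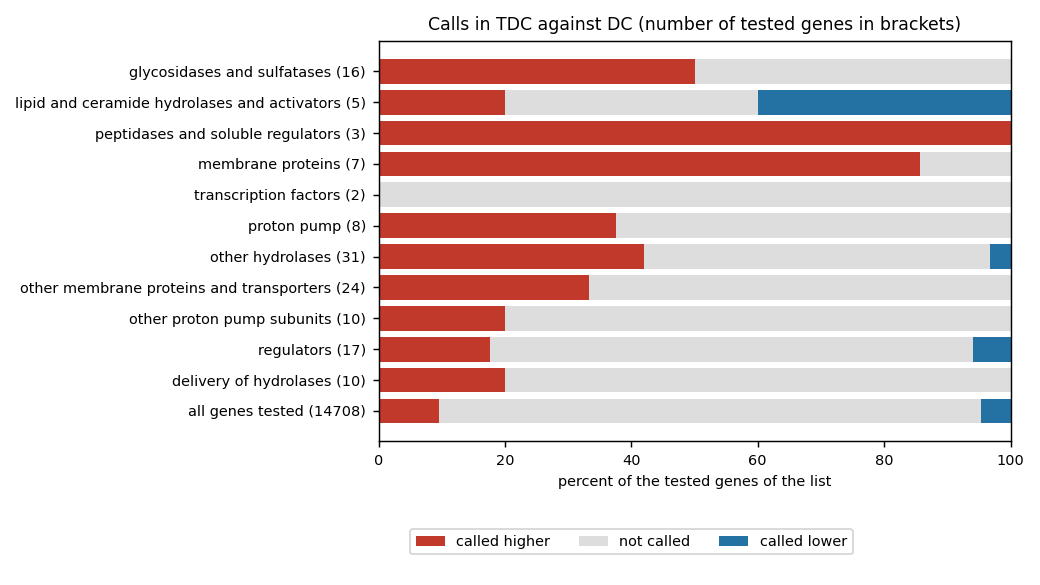
Percent of the tested genes of each list called higher, not called or called lower in TDC against DC, with the number of tested genes in brackets; member roles come first, then the other lysosomal lists, then all 14708 genes tested. All 3 peptidases and soluble regulators were called higher, against 9.55% of all genes, and calls of lower genes were among lipid hydrolases, other hydrolases and regulators.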

How the data were processed

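RNA from 3 libraries each of TDC, conventional DC and conventional T cells was counted at transcript 3′ ends. The authors deposited 1 table of whole-number read counts per gene and library, not normalised. FastQC, MultiQC, Trimmomatic, STAR and featureCounts are named, without versions, in the submitters' processing notes, which name the human build hg38 for these mouse samples. No source used here gives the strand setting. Spreadsheet software had turned 26 symbols into dates, none of them a member.

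Counts were tested as deposited with edgeR 4.0.16 in R 4.3.3: filterByExpr (minimum count 10, minimum total 15) kept 14708 genes and at least 99.8% of each library's reads, with TMM scaling. All 3 groups entered 1 robust quasi-likelihood fit (6 residual degrees of freedom, common biological coefficient of variation 0.588), followed by Benjamini-Hochberg adjustment at 0.05. SEs were computed as the log2 fold change over the square root of F. Libraries of a group differed beyond sampling noise (chi-square per degree of freedom 62.3 to 250.0). Whether pools shared animals is not in the labels, so a p-value measures the spread among these pools only. Counting intervals and limits (3 reads) cover counting error only.

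The members and the gene lists were chosen with earlier results of these data known. Values in every library were given for the 2 members of a role with the largest log2 fold changes among those called (4 for glycosidases and sulfatases and for the pump), for members called lower, those nearest the threshold, Lamp1, Lamp2, Tfeb, Tfe3 and both d subunits. Pathway genes were named by the smallest adjusted p of a list or as known partners or relatives of members, 5 of them with values in every library and the others by summary values. Gusb, Naaa and Rraga were added after their values were seen. A pathway gene that the rule names is not reported here. Alternatives were DESeq2 1.42.0, limma-voom (limma 3.58.1), other scalings and filters, fits of 2 groups, a block for the replicate number, and fits with libraries left out. Promoters came from RefSeq (GRCm38.p6). Protein sequences were not used here.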

Additional observations from a re-analysis of the deposited data

How the results depend on the processing

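Of 23 calls on members in TDC against DC, 13 held in each of 20 alternatives, as did 29 of 35 in TDC against T cells and 17 of 21 in DC against T cells. No member changed direction where it was called. Members higher in TDC than in DC numbered 12 (without TDC replicate 2) to 20 with single libraries left out, 14 with library size alone, 17 in a fit of TDC and DC alone, 25 with limma-voom and 28 with DESeq2. The count over all genes, 1404 in the main fit, changed too. It was 897 to 1365 with single libraries left out and 1135 with library size alone. In a fit of TDC and DC alone it was 1199, with limma-voom 1942 and with DESeq2 2015. Members lower in TDC than in DC numbered 1 without the filter on low counts, 1 to 2 with single libraries left out and 1 without TDC replicate 1 and DC replicate 2, a setting chosen after seeing the data. Members lower in DC than T cells numbered 1 with DESeq2 size factors, library size, upper-quartile factors, the DESeq2 test or without those 2 libraries, and 0 to 1 with single libraries left out. Of the 99 other lysosomal genes, with single libraries left out, 18 to 26 were above DC in TDC and 1 to 3 below, 1 to 2 were lower in TDC than T cells, and 2 to 6 were lower in DC than T cells. With library size, the DESeq2 test or without those 2 libraries, 2 were lower in TDC than T cells, and without those 2 libraries 10 were lower in DC than T cells. The causes of these shifts were not tested. The share of promoters with the longer string, 11.6% of members and 0.974% of all, became 27.9% and 7.15% with CACGTG.

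Of all genes in TDC against DC, 897 were higher without TDC replicate 2, in place of 1404, and 1234 (DESeq2), 1051 (limma-voom), 431 (replicate block), 448 (without TDC replicate 1 and DC replicate 2) or 293 to 447 (without DC replicate 1 or TDC replicate 1 or 2) were lower, in place of 677. Lower in TDC than T cells were 3321 with library size and 937 or 1030 without TDC or T cell replicate 2, in place of 1654, and lower in DC than T cells 1886 with library size and 1891 without TDC replicate 1 and DC replicate 2, in place of 1237. Same-numbered libraries share a number, a pool size and a column prefix, and no label says that they share animals or a day. Their deviations from the group means correlated at -0.384 to 0.224, and those of differently numbered libraries of 2 populations at -0.197 to 0.363. The highest value was between TDC replicate 1 and DC replicate 2, which deviated alike by transcript length, so such deviations enter these correlations. The number was not taken as a pairing, which does not show that the libraries were unpaired. With the number as a block, 15 members exceeded DC in TDC and 2 were lower there, 33 were higher in TDC than T cells, and 1 of the other lysosomal genes was lower in TDC than in DC. Over all genes, 1055 were then higher in TDC than in DC, in place of 1404, and 2758 higher than T cells, in place of 3204.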
